A study of Mus musculus with 40 samples.

Results

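The 36 genes described here are the peroxisome proliferator-activated receptor (PPAR) genes, targets of these receptors and enzymes of fatty acid oxidation, chosen by name from the 15958 genes of the deposited table of log2 TPM (an expression level scaled by transcript length and by the library's total). All 36 passed the filter on low values in the 3 tissues (a mean log2 TPM above 1 over the libraries of a tissue). They were *Ppara*, *Pparg*, *Ppard* and the coactivator *Ppargc1a*; the microsomal omega-hydroxylases *Cyp4a10*, *Cyp4a14* and *Cyp4a31*; the acyl-CoA synthetase *Acsl1* and the thioesterases *Acot1* and *Acot2*; the carnitine shuttle genes *Cpt1a*, *Slc25a20*, *Cpt2* and *Crat*; the mitochondrial beta-oxidation core *Acadvl*, *Acadl*, *Acadm*, *Hadha*, *Hadhb*, *Hadh*, *Acaa2* and *Etfdh*; the auxiliary enzymes *Ech1*, *Eci1*, *Eci2* and *Decr1*; the peroxisomal genes *Ehhadh* and *Pex11a*; *Pdk4* and *Vnn1*; the uptake, binding and droplet genes *Cd36*, *Fabp1*, *Fabp2* and *Plin2*; and the secreted factors *Angptl4* and *Fgf21*.

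The samples came from male wild type C57BL/6 mice that had a small bowel resection (SBR) of 50 to 60% of its length, as the labels give it, or a sham operation at 8 weeks of age. The study's methods describe a larger proximal resection than the labels do. From 3 weeks after surgery the mice were dosed daily for 7 weeks with vehicle or with WUSTL0717, an agonist of the liver X receptor that acts mainly in the gut, at 30 mg/kg. Bulk RNA was sequenced from duodenum and from ileum (3 sham vehicle, 4 SBR vehicle and 4 SBR WUSTL0717 libraries each) and from liver (5, 8 and 5 libraries). No sham group received WUSTL0717, so its effect was measured only after SBR, and the labels do not tie libraries to animals, so p-values measure the spread between libraries.

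PPARs are nuclear receptors that bind fatty acids and their derivatives and act as heterodimers with the retinoid X receptor. PPARα is known for inducing the genes of fatty acid uptake, activation, transport into mitochondria and peroxisomes, and oxidation, in the liver as well as in the absorptive cells of the small intestine, while PPARγ is best known for lipid storage in adipocytes. In beta-oxidation an acyl-CoA is carried across the mitochondrial membranes as a carnitine ester and then shortened by repeated rounds of dehydrogenation, hydration, dehydrogenation and thiolysis.

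The intestinal and the liver libraries were separate batches in the labels, and the submitters' batch adjustment had brought the mean of liver and of intestine to within 1 log2 unit of each other for 99.4% of genes. A gene's level was therefore not compared between liver and gut, nor between genes, and the liver label could not be checked against hepatocyte markers. Summed marker levels are on the same adjusted scale and were compared only between libraries of the liver or of the gut. The height of such a sum does not by itself show that cells of that type were present. Between the gut regions the labels held, with *Fabp6* 7.04 log2 units higher in sham ileum than in sham duodenum and *Pdx1* 5.25 lower (-5.25). The median over all genes ranged from 2.13 to 3.09 in the duodenal, from 3.18 to 3.82 in the ileal and from 3.05 to 3.77 in the liver libraries, and the read depth is unknown. One liver library, SBR vehicle replicate 7, held RNA of the exocrine pancreas (a summed level of acinar markers of 11.65 log2 TPM, the highest among liver libraries). In bulk tissue, fewer cells of a type and less RNA per cell cannot be told apart.

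In the duodenum after SBR, 6 members were higher with WUSTL0717 than with vehicle: 2 thioesterase genes, 2 omega-hydroxylase genes, the translocase gene *Cd36* and the carrier gene *Slc25a20*. *Acot1* rose 11.3-fold, *Cyp4a10* 8.57-fold, *Cyp4a31* 8.38-fold, *Acot2* 7.89-fold, *Cd36* 7.03-fold and *Slc25a20* 4.00-fold. These 6 members passed an adjusted p of 0.05 (limma, Benjamini-Hochberg over all genes tested), all of them higher, against 0.258% of all 15093 genes tested in this comparison and 0.252% called higher. The log2 difference was above 0 for 33 of the 36 members and for 54.1% of all genes, with a median of 1.56 beside 0.04 over all genes.

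The omega-hydroxylases start the oxidation of a fatty acid from its methyl end. *Cyp4a10* (chr4:115518264-115533649 in GRCm38) stood at 5.55, 6.52, 5.46 and 7.01 log2 TPM in the 4 SBR vehicle libraries and at 9.05, 9.05, 9.36 and 9.49 in the SBR WUSTL0717 libraries, beside 5.70, 6.96 and 6.33 in sham. Its difference between the SBR groups was 3.10 ± 0.45 log2 units (SE, 95% interval 2.11 to 4.09, adjusted p = 0.018). Every WUSTL0717 library lay above every vehicle library, whether SBR or sham. *Cyp4a31* (chr4:115563649-115579015) stood at 2.64, 2.29, 1.63 and 2.65 with vehicle, at 4.82, 5.44, 5.43 and 5.80 with WUSTL0717 and at 1.73, 2.62 and 2.18 in sham. The difference of 3.07 ± 0.37 (2.27 to 3.86, adjusted p = 0.00508) again separated the drug-treated libraries from the other 7. *Cyp4a14*, the remaining member of this family, shared a lowest value of 4.23 with 7 of 11 duodenal libraries and gave 0.18 ± 0.28 (adjusted p = 1). Of the 100-base stretches of their transcripts, 12.7% for *Cyp4a10* and 8.22% for *Cyp4a31* also occur in another gene, most of them in *Cyp4a32*.

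Acyl-CoA thioesterases release free fatty acids from their CoA esters, *Acot1* in the cytosol and *Acot2* in mitochondria. *Acot1* (chr12:84009490-84018371) stood at 2.28, 3.54, 2.02 and 2.84 log2 TPM with vehicle after SBR and at 5.85, 5.80, 6.29 and 6.73 with WUSTL0717. The difference was 3.50 ± 0.41 (2.60 to 4.39, adjusted p = 0.00508), and sham libraries at 2.27, 2.75 and 3.15 overlapped with SBR vehicle only. *Acot2* (chr12:83987861-83993873) stood at 3.49, 4.67, 3.43 and 4.78 with vehicle and at 6.42, 7.17, 6.85 and 7.85 with WUSTL0717. Its difference was 2.98 ± 0.47 (1.97 to 3.99, adjusted p = 0.0213), again without overlap between the groups. The 2 genes are neighbours and 21.9% of the *Acot1* and 17.1% of the *Acot2* stretches of 100 bases also occur in another gene, for each most often in the other of the pair, so part of their reads could be split or dropped in counting. *Acsl1*, which activates fatty acids to acyl-CoA, gave 1.50 ± 0.40 with no overlap between groups but an adjusted p of 0.29.

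*Cd36* (chr5:17781690-17888801), a fatty acid translocase of the cell membrane, stood at 2.05, 2.88, 3.59 and 3.45 log2 TPM with vehicle and at 5.54, 5.84, 6.24 and 5.62 with WUSTL0717. The difference was 2.81 ± 0.43 (1.89 to 3.74, adjusted p = 0.0196), and the 3 sham libraries (2.47, 3.73 and 2.81) lay below every WUSTL0717 library. Sham replicate 2 (3.73) was above every SBR vehicle value and the other two sham libraries were within their range. *Slc25a20* (chr9:108662088-108684641), the carnitine-acylcarnitine carrier of the inner mitochondrial membrane, stood at 4.15, 4.06, 3.68 and 4.59 with vehicle and at 5.86, 6.12, 5.98 and 6.53 with WUSTL0717. The WUSTL0717 values spanned under 1 log2 unit and lay above every vehicle value, with a difference of 2.00 ± 0.33 (1.28 to 2.72, adjusted p = 0.0273).

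**Figure D1:**
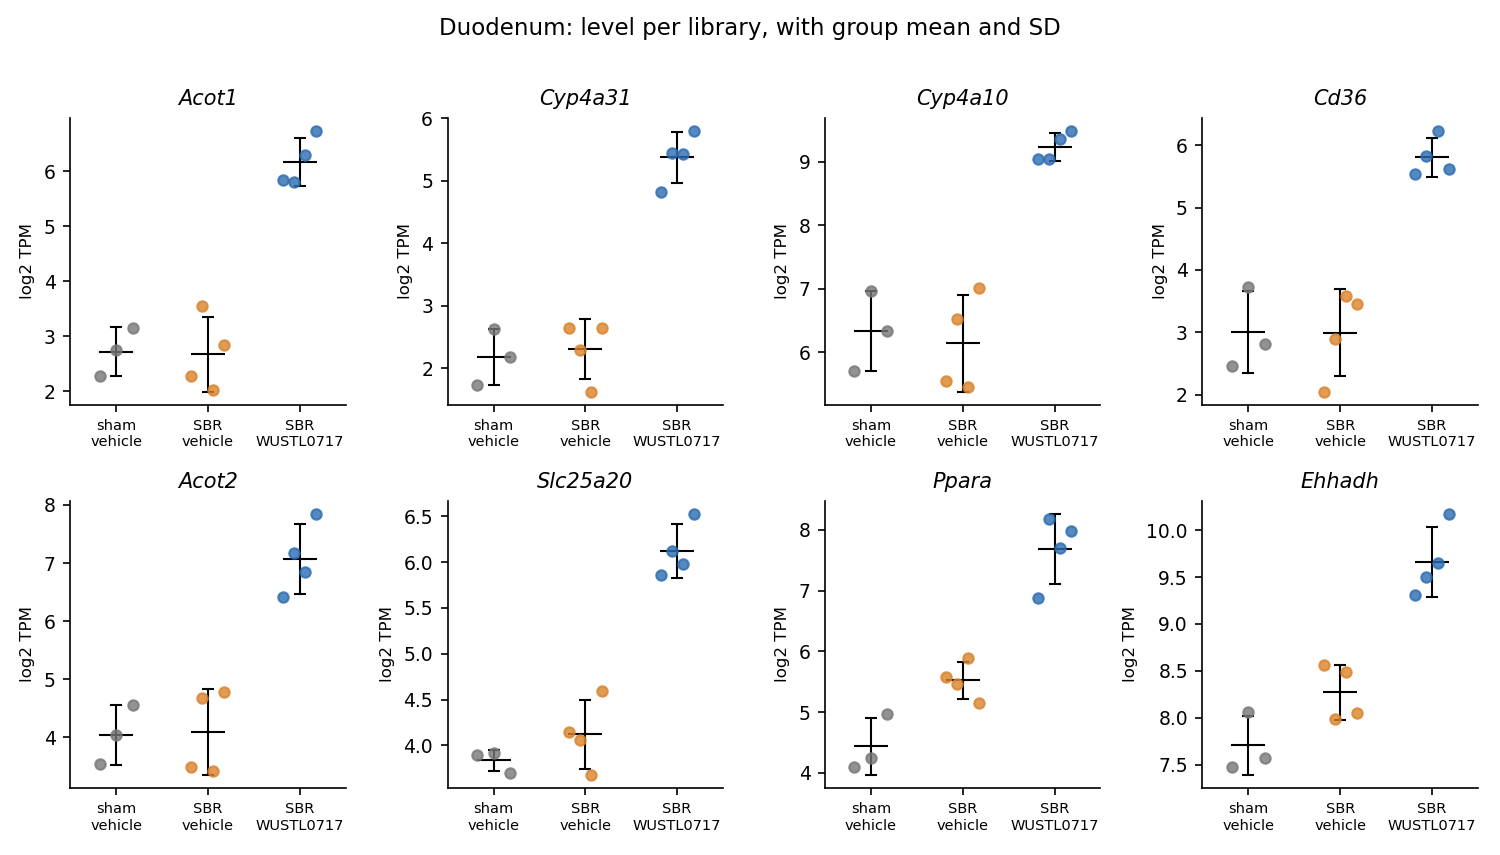
Expression of 8 members in each duodenal library (y axis, log2 TPM, points) by group (x axis: sham vehicle, SBR vehicle and SBR WUSTL0717), with the mean and SD of each group. The WUSTL0717 points of *Acot1*, *Cyp4a31*, *Cyp4a10*, *Cd36*, *Acot2*, *Slc25a20*, *Ppara* and *Ehhadh* lie above all SBR vehicle points.

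Among the receptors, *Ppara* (chr15:85734983-85802819) stood at 4.10, 4.25 and 4.97 log2 TPM in sham, at 5.58, 5.47, 5.90 and 5.15 in SBR vehicle and at 6.87, 8.18, 7.71 and 7.99 in SBR WUSTL0717. The 3 groups did not overlap in this order. The difference between the SBR groups was 2.16 ± 0.40 (1.29 to 3.04) with an adjusted p of 0.0555, and the exact two-sided permutation test gave p = 0.0286, the smallest that 4 against 4 libraries allow. *Pparg* (-0.03 ± 0.33), *Ppard* (-0.63 ± 0.50) and the coactivator *Ppargc1a* (-0.24 ± 0.61), which partners PPARs on mitochondrial genes, overlapped between the SBR groups and were the 3 members with a difference below 0.

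The other members were described by counts. At an unadjusted p under 0.05, 29 of the 36 members were higher with WUSTL0717, where 3.66% of all genes were, and none was lower, where 1.65% were. In 27 members every WUSTL0717 library lay above every SBR vehicle library, against 2.11% of all genes, and each of these gave an exact permutation p of 0.0286. The 9 members with overlapping groups were *Pparg*, *Ppard*, *Ppargc1a*, *Cyp4a14*, *Cpt1a*, *Hadh*, *Pex11a*, *Angptl4* and *Fgf21*.

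All 8 genes of the mitochondrial beta-oxidation core had differences above 0, from 1.07 for *Acadl*, the long-chain acyl-CoA dehydrogenase, to 2.07 for *Hadhb*, the thiolase subunit of the trifunctional protein, and none passed the adjusted threshold in limma (7 of 8 had an unadjusted p under 0.05). *Hadhb* stood at 5.43, 4.54, 4.35 and 4.21 with vehicle and at 6.20, 6.99, 7.06 and 6.57 with WUSTL0717 (adjusted p = 0.0905), and 52.8% of its stretches of 100 bases also occur in another gene, most often in *Gm13910*. Of the 4 auxiliary enzymes that handle unsaturated chains, *Eci1*, an enoyl-CoA isomerase, had the largest difference, 2.48 ± 0.48 (adjusted p = 0.0699), with vehicle libraries at 5.21, 4.55, 4.08 and 3.18 and WUSTL0717 libraries at 6.83, 6.34, 7.51 and 6.25. *Ech1*, *Eci2* and *Decr1* gave 2.14, 1.82 and 1.52. The carnitine palmitoyltransferases differed by 2.03 (*Cpt2*, adjusted p = 0.288) and 1.33 (*Cpt1a*, adjusted p = 0.645).

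*Pdk4*, a kinase that inhibits pyruvate dehydrogenase and so spares glucose, stood at 4.01, 4.60, 2.37 and 3.93 with vehicle and at 5.66, 6.54, 6.69 and 5.62 with WUSTL0717 (2.40 ± 0.48, adjusted p = 0.0837). The pantetheinase *Vnn1* gave 1.84 ± 0.38 (adjusted p = 0.0887) and the bifunctional peroxisomal enzyme *Ehhadh* 1.39 ± 0.37 (adjusted p = 0.279). *Plin2*, a coat protein of lipid droplets, stood at 7.39, 7.23, 6.42 and 7.07 with vehicle and at 8.22, 9.90, 9.11 and 10.41 with WUSTL0717 (2.38 ± 0.50, adjusted p = 0.101). The 2 groups did not overlap in any of these 4 genes. The fatty acid binding proteins *Fabp1* and *Fabp2* differed by 1.23 ± 0.36 and 1.59 ± 0.61. The secreted *Angptl4*, an inhibitor of lipoprotein lipase, differed by 2.33 ± 0.61 (adjusted p = 0.258), and the hormone *Fgf21* was split, at 4.79 and 4.14 in WUSTL0717 replicates 1 and 4 and at the shared lowest value of 1.92 in replicates 2 and 3.

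**Figure D2:**
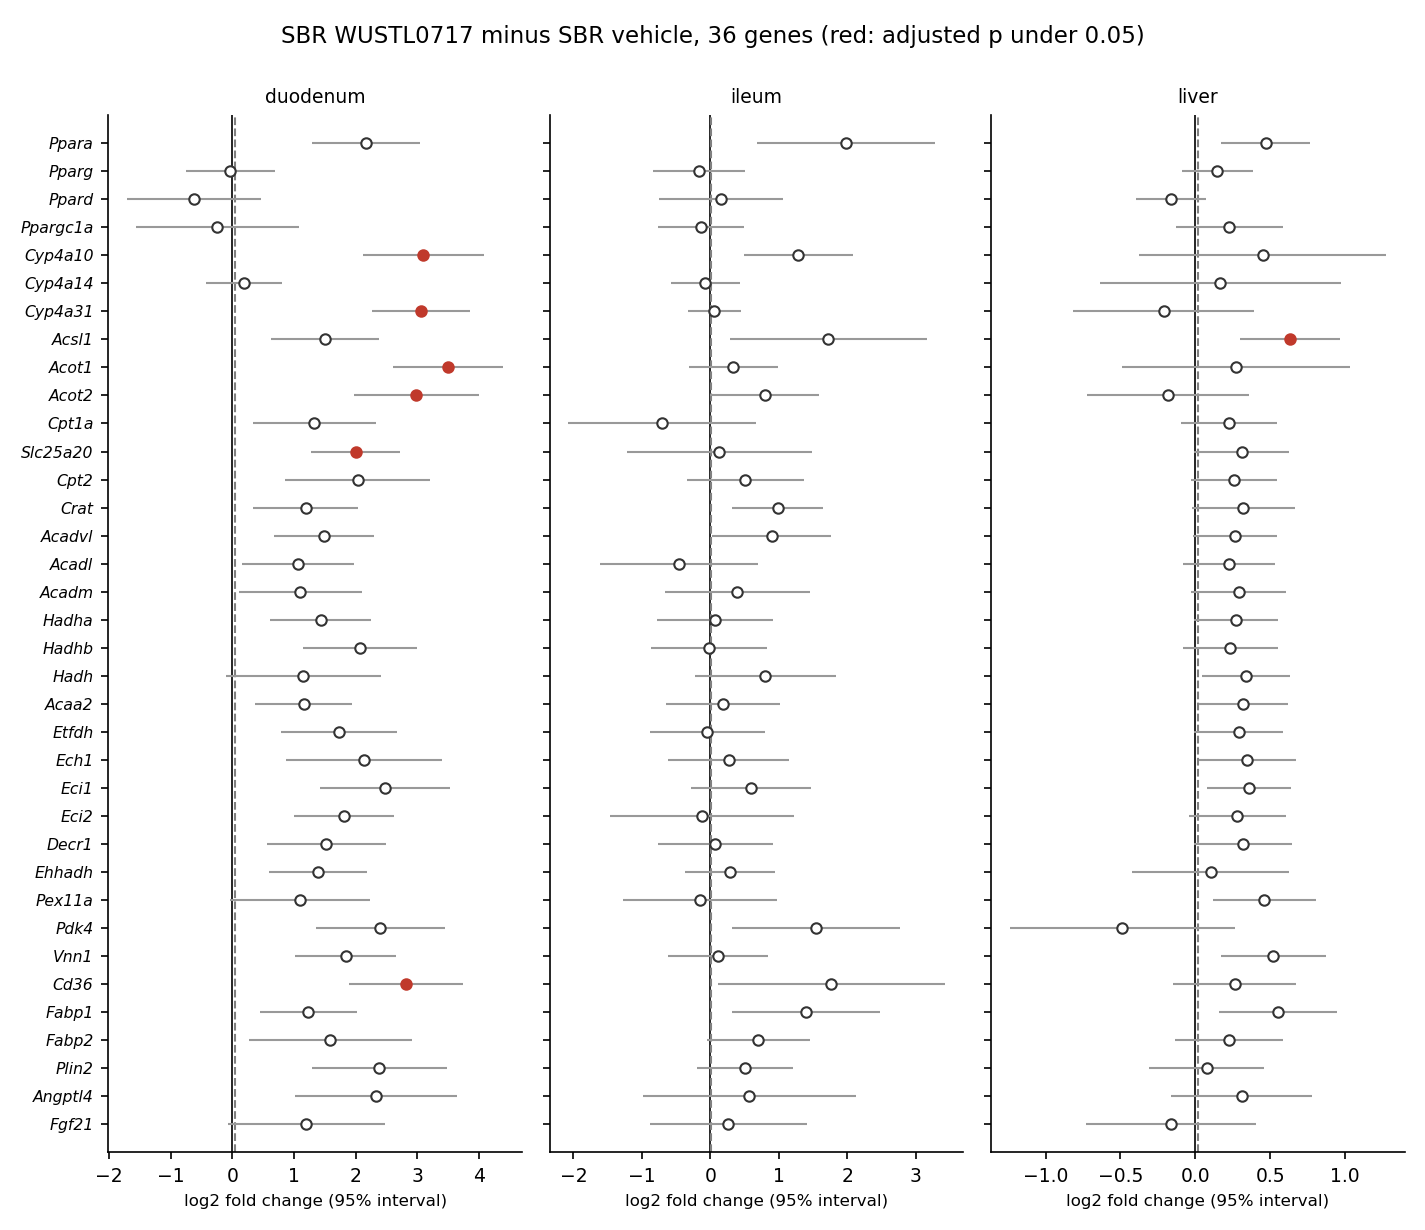
Difference between SBR WUSTL0717 and SBR vehicle (x axis, log2 units) for the 36 members (y axis), 1 panel per tissue, with 95% intervals. Red marks an adjusted p under 0.05, and the dashed line is the median of all genes tested. The duodenal panel has 6 red members, the ileal panel 0 and the liver panel 1.

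The 6 calls depended on single libraries. Leaving out SBR vehicle replicate 1 or 2, or WUSTL0717 replicate 2, 3 or 4, left 2 members called, and leaving out SBR vehicle replicate 3 left 3 (beside 0.0464% to 0.106% of all genes), while *Acot1* and *Cyp4a31* stayed under an adjusted p of 0.05 in all 8 such fits (highest 0.033). *Cyp4a10* and *Acot2* kept their calls in 2 of the 8 fits and *Cd36* in 3, and *Slc25a20* was called in 0 of the 8 (limma, adjusted p from 0.0578 to 0.125). No marker gene of another cell type passed the test in this comparison; the summed acinar markers ranged from 4.52 to 9.85 log2 TPM with vehicle and from 7.47 to 10.65 with WUSTL0717, the enterocyte markers from 8.73 to 9.64 and from 8.54 to 8.57, and their part in the result was not tested.

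PPAR heterodimers bind 2 copies of AGGTCA in the same direction with 1 base between them, and liver X receptor heterodimers prefer 4 bases between. RefSeq windows of 300 bases (250 before and 50 after the start, GRCm38.p6) were at hand for 28 of the 36 members, and were searched on both strands. The exact spaced repeat AGGTCANAGGTCA was in 0.0396% of all 32851 windows and in no member's window, and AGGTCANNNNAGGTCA was in 0.0152% and in no member's window. With 1 free base in each copy (AGGNCANAGGNCA), 0.381% of windows and 1 member, *Fabp1*, held a match. A single AGGTCA was in 16.3% of windows and in those of 7 members (*Pparg*, *Cpt1a*, *Acadvl*, *Acadm*, *Cd36*, *Fabp1* and *Plin2*). The 250 bases before the start are shown for *Fabp1*, as the 1 member with the spaced repeat, and for 3 of the genes called in the duodenum: *Fabp1* at chr6:71199629-71199878 (plus strand), *Acot1* at chr12:84009252-84009501 (plus), *Acot2* at chr12:83987611-83987860 (plus) and *Cd36* at chr5:17835897-17836146 (minus). Capitals mark the spaced repeat in *Fabp1*, at positions -67 to -55 from the start and reading AGGCCATAGGTCA on the other strand, and the single copy in *Cd36*, at positions -228 to -223. A further single copy near the end of the printed *Fabp1* bases (tgacct) is left in lower case. *Acot1* and *Acot2* hold none of these letters in their windows.
Fabp1: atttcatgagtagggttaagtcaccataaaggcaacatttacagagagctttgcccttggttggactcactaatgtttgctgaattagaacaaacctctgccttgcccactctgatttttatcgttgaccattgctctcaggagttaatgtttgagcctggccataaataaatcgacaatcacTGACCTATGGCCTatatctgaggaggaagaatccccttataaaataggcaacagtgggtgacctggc
Acot1: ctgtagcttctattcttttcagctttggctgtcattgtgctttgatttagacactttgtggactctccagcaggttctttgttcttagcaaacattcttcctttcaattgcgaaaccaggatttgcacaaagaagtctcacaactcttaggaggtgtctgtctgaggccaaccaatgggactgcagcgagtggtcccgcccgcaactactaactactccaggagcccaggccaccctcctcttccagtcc
Acot2: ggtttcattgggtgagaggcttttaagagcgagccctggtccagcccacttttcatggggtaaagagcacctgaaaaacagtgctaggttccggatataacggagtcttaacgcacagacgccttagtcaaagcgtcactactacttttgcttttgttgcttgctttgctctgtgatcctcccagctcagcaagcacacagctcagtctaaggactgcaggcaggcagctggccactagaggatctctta
Cd36: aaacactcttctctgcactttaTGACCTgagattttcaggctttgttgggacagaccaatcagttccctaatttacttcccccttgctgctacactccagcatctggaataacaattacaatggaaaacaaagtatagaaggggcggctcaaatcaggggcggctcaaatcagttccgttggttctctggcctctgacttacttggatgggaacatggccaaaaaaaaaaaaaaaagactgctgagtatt

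SBR itself, in vehicle-treated mice, left no member past the adjusted threshold in the duodenum (limma, 0 of 36 and 0% of all genes tested). At an unadjusted p under 0.05, 4 members were higher and none lower, beside 3.41% of all genes higher and 12.7% lower. These were *Fabp2*, the intestinal fatty acid binding protein (1.86 ± 0.66, adjusted p = 0.274), *Acadl* (1.16, adjusted p = 0.281), *Ppara* (1.09 ± 0.43, adjusted p = 0.281) and the peroxisome division factor *Pex11a* (1.24, adjusted p = 0.309). *Ppara* and *Acadl* were the members whose SBR libraries all lay above the sham libraries, and *Fgf21* the one whose SBR libraries all lay below (3.41% and 6.24% of all genes). The median of all genes was itself shifted by -0.36 log2 units between these groups, against 0.06 for the members. With each library centred on its own median the members' median was 0.46 and none was called.

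Against sham, 12 members were higher in SBR WUSTL0717, where 0.802% of genes tested were called and 0.749% were called higher. Beyond the 6 genes above, these were *Ppara* (3.25 ± 0.43, adjusted p = 0.00624), *Fabp2* (3.45, 0.0348), *Plin2* (2.77, 0.04), *Ehhadh* (1.96, 0.0445), *Acadl* (2.22, 0.0451) and *Crat* (2.07, 0.0468), which encodes carnitine acetyltransferase. With 1 library left out, *Ppara* kept its call in all 7 fits, *Fabp2* in 2 and *Plin2* in 1. *Ehhadh*, *Acadl* and *Crat* were called in 0 of the 7. *Fabp2* rose from 5.45, 7.17 and 4.84 log2 TPM in sham to 8.31, 10.26, 9.94 and 8.57, with SBR vehicle between them at 6.95, 8.29, 7.73 and 7.76. *Ehhadh* rose from 7.48, 8.06 and 7.57 to 9.31, 9.50, 9.65 and 10.18. This comparison shares its WUSTL0717 libraries with the one above and its sham libraries with the SBR comparison. The number called fell to 3 without sham replicate 1 or 3, to 4 without WUSTL0717 replicate 3 or 4 and to 7 without sham replicate 2 or WUSTL0717 replicate 2 (beside 0.146% to 0.497% of all genes), and it was 24 with each library centred on its median, where 2.41% of all genes were called higher. Cell type markers moved with this comparison and with that of SBR alone in the duodenum. The 4 measured genes of an adipocyte list of 8 had a summed level of 7.12 to 7.64 log2 TPM in SBR WUSTL0717, 6.98 to 7.42 in SBR vehicle and 5.15 to 6.08 in sham, with *Cidec* called (1.94, adjusted p = 0.0445). *Cidec* is also on the wider list of PPAR target and lipid genes, so its rise does not mark adipocytes apart from that pathway. The defining genes *Adipoq* and *Plin1* were not analysed here. In the same order of groups, the enterocyte list of 8 ranged from 8.54 to 8.57, from 8.73 to 9.64 and from 7.9 to 8.36. The macrophage list of 8 ranged from 6.51 to 7.96, from 6.33 to 7.74 and from 7.76 to 10.02. The 4 measured genes of an ileal enterocyte list of 5 ranged from 4.03 to 4.47, from 4.08 to 4.87 and from 3.67 to 3.91. SBR vehicle lay wholly apart from sham in each of these lists. Their part in the result was not tested.

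**Figure D3:**
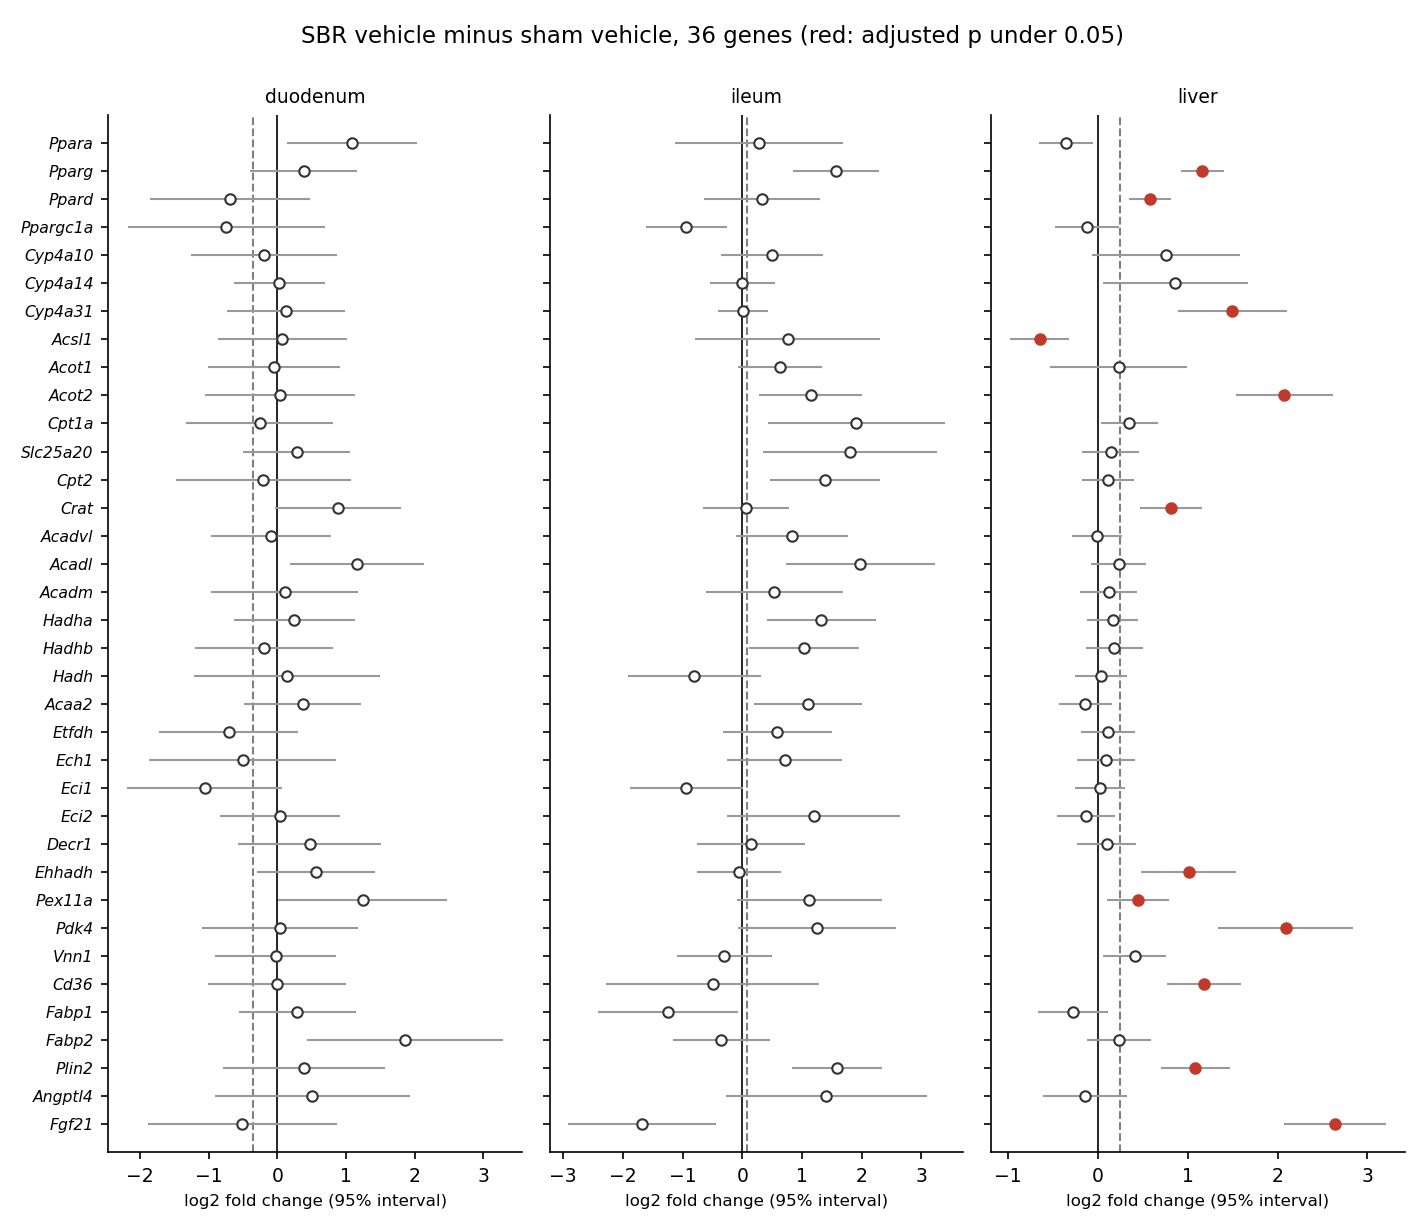
Difference between SBR vehicle and sham vehicle (x axis, log2 units) for the 36 members (y axis), 1 panel per tissue, with 95% intervals. Red marks an adjusted p under 0.05, and the dashed line is the median of all genes tested. No member is red in either gut region, and 12 are in the liver.

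Other genes of the pathway in the duodenum were read from wider lists. With WUSTL0717 against vehicle after SBR, 5 of 30 further peroxisomal and thioesterase genes, 5 of 38 further PPAR target and lipid genes and 0 of 15 receptor partners and coregulators passed the test, all of them higher, beside 0.258% of all genes. *Acot3* gave 2.00 (adjusted p = 0.021), the peroxisomal thiolase gene *Acaa1b* 2.704 (0.0225), *Decr2* 2.704 (0.0213), the fatty acid hydroxylase gene *Cyp4f15* 3.27 (0.011) and the malic enzyme gene *Me1* 2.87 (0.013).

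In the ileum, members were called only in SBR WUSTL0717 against sham. In SBR WUSTL0717 the lipid droplet gene *Plin2* was 2.08 log2 units higher than in sham, *Acot2* 1.94, *Pdk4* 2.79, *Cpt2* 1.90 and *Cyp4a10* 1.78 (adjusted p = 0.0122, 0.0284, 0.0374, 0.0407 and 0.0407 in limma). These 5 stood beside 2.17% of all 15772 genes called in either direction and 1.66% called higher. In 19 members every WUSTL0717 library lay above every sham library, where 9.46% of all genes did, and in 1, *Ppargc1a*, every one lay below (3.73% of all genes).

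*Plin2* stood at 5.21, 4.81 and 4.29 log2 TPM in sham, at 5.86, 6.31, 6.49 and 6.75 in SBR vehicle and at 6.26, 7.34, 7.12 and 6.71 in SBR WUSTL0717. Both SBR groups lay wholly above sham and overlapped with each other. *Cyp4a10* stood at 2.52, 2.48 and 2.57 in sham and at 4.17, 4.30, 4.93 and 3.82 in SBR WUSTL0717. SBR vehicle lay with sham in 3 libraries (2.56, 2.80 and 2.56) and with the drug in replicate 4 (4.17). *Acot2* went from 1.78, 2.30 and 2.22 in sham through 2.83, 3.10, 2.69 and 4.34 to 3.40, 4.34, 4.30 and 4.11. *Pdk4* went from 1.10, 0.79 and 2.00 in sham through 2.81, 1.38, 2.05 and 3.96 to 3.73, 4.22, 5.25 and 3.17. In both genes SBR vehicle replicate 4 lay among the WUSTL0717 libraries. The *Cpt2* values were 4.49, 5.51 and 4.80 in sham, 6.92, 5.77, 6.15 and 6.48 in SBR vehicle and 6.76, 6.61, 7.83 and 6.16 in SBR WUSTL0717, so that both SBR groups lay above sham.

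**Figure D4:**
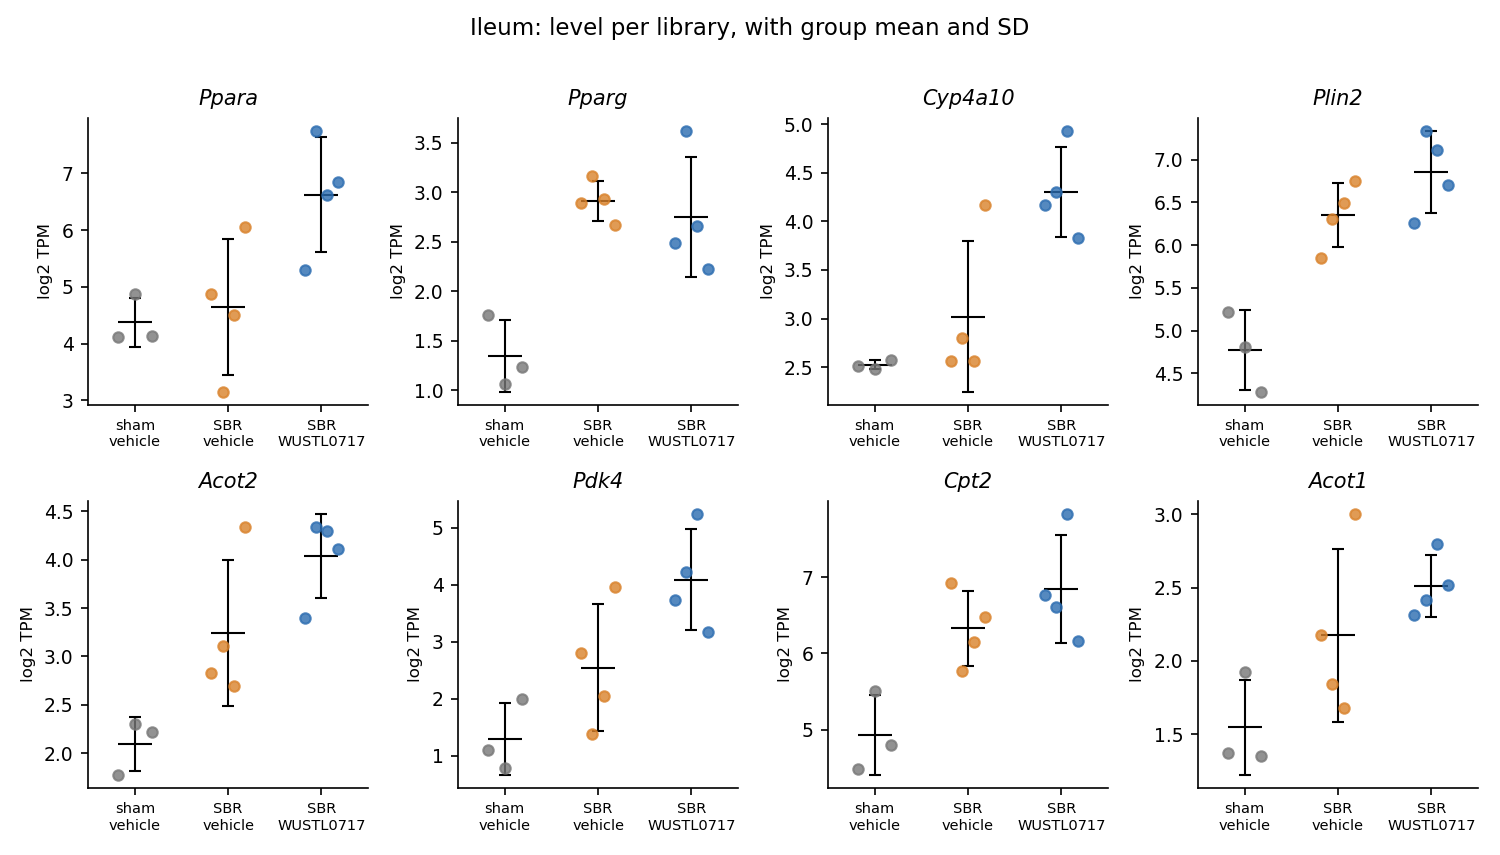
Expression of 8 members in each ileal library (y axis, log2 TPM, points) by group (x axis), with the mean and SD of each group. *Plin2*, *Pparg*, *Cpt2* and *Acot2* lie above sham in both SBR groups, and 1 SBR vehicle library (replicate 4) lies above the other 3 in *Ppara*, *Cyp4a10*, *Acot1*, *Acot2* and *Pdk4*.

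Between the SBR groups of the ileum no member was called in limma (0.0697% of all genes were), 9 were higher at an unadjusted p under 0.05 (4.12% of all genes) and *Crat* alone did not overlap (2.56% of all genes). *Crat* stood at 4.36, 3.36, 3.62 and 4.65 with vehicle and at 4.73, 5.02, 4.88 and 5.28 with WUSTL0717 (0.98 ± 0.31, adjusted p = 0.537). *Ppara* stood at 4.11, 4.87 and 4.14 in sham, at 4.87, 3.16, 4.51 and 6.05 in SBR vehicle and at 5.29, 7.75, 6.62 and 6.85 in SBR WUSTL0717. Its drug difference was 1.98 ± 0.60 (0.68 to 3.28, adjusted p = 0.501), with overlap between the SBR groups. *Cyp4a31* was at its lowest value of 1.32 in 8 of the 11 ileal libraries. *Cd36* reached 8.13 in WUSTL0717 replicate 2 and 4.26 to 4.49 in the other 3.

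For SBR alone in the ileum, again no member was called in limma (0.349% of all genes were), while 10 were higher and 3 lower at an unadjusted p under 0.05 (5.52% and 2.94% of all genes). *Pparg* stood at 1.76, 1.06 and 1.23 in sham and at 2.89, 3.16, 2.93 and 2.67 in SBR vehicle, with no overlap (1.56 ± 0.33, adjusted p = 0.0865). With WUSTL0717 it stood at 2.49, 3.62, 2.66 and 2.22, also above sham (1.40 ± 0.33, adjusted p = 0.0527). The core enzyme gene *Acadl* gave 1.98 ± 0.57 (adjusted p = 0.23) after SBR. The 3 lower members were *Ppargc1a* (-0.94 ± 0.31, adjusted p = 0.323), *Fgf21* (-1.68 ± 0.57, 0.341) and *Fabp1* (-1.25 ± 0.54, 0.551). With 1 library left out these ranged from -1.09 to -0.80, from -2.31 to -1.04 and from -1.64 to -0.70. In 10 members the SBR libraries all lay above sham and in 2, *Ppargc1a* and *Eci1*, below (6.73% and 2.77% of all genes).

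Markers of cell types and gut regions moved with these ileal values. The summed level of the 4 measured genes of an adipocyte list of 8 ranged from 7.15 to 8.2 log2 TPM in SBR WUSTL0717, from 5.6 to 6.26 in SBR vehicle and from 4.47 to 6.29 in sham, with *Cfd* 3.60 and *Cidec* 3.36 higher than in sham. *Cidec* is also on the wider list of PPAR target and lipid genes. The defining genes *Adipoq* and *Plin1* were not analysed here. The summed hepatocyte markers ranged from 10.5 to 13.15 in WUSTL0717, highest in replicate 2, from 9.82 to 11.06 in SBR vehicle and from 10.38 to 10.77 in sham. The 4 measured genes of an ileal enterocyte list of 5 ranged from 8.41 to 9.24 in WUSTL0717, from 8.68 to 8.99 in SBR vehicle and from 7.03 to 7.33 in sham. In the same order, the duodenal enterocyte list of 5 ranged from 4.09 to 4.56, from 3.68 to 4.83 and from 4.92 to 5.25. The cholangiocyte list of 5, whose genes do not mark cholangiocytes in the gut, ranged from 8.54 to 9.57, from 8.51 to 9.21 and from 8.02 to 8.39. Both SBR groups lay wholly apart from sham in these 3 lists. Their part in the result was not tested. Without WUSTL0717 replicate 2 and SBR vehicle replicate 4 together, 4 members were called against sham, beside 1.50% of all genes, with *Pdk4* at an adjusted p of 0.0538 and *Cpt2* at 0.0802, and *Pparg* was called for SBR alone (1.65, adjusted p = 0.0308). Leaving out single libraries left between 0 (without sham replicate 2) and 3 (without WUSTL0717 replicate 4) of the 5 calls, with 2 without WUSTL0717 replicate 1 and 1 without sham replicate 1 or 3 or WUSTL0717 replicate 2 or 3, where 0.412% to 1.52% of all genes were called.

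Among the wider lists in the ileum, SBR WUSTL0717 against sham called 2 of 27 further mitochondrial, 3 of 30 peroxisomal and thioesterase and 5 of 38 PPAR target and lipid genes, all higher, and 0 of 16 receptor partners, beside 2.17% of all genes. These included the short-chain dehydrogenase gene *Acads* (2.39), the branched-chain oxidase gene *Acox2* (3.55), *Acaa1b* (3.30) and *Acsl3* (3.30). Between the SBR groups 1 gene of these lists passed, *Acsl3* (1.81, adjusted p = 0.043), beside 0.0697% of all genes, and for SBR alone 1 did, *Acox2* (2.62, adjusted p = 0.0145), beside 0.349%.

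The gut regions differed before any resection. In sham mice 12 members were lower and 2 higher in ileum than in duodenum, a share beside 14.6% of all 15923 genes called (3.83% lower and 10.8% higher). *Cyp4a10* was lower by -3.80 log2 units, *Pparg* by -3.17 (4.47, 4.56 and 4.52 in duodenum and 1.76, 1.06 and 1.23 in ileum), *Acaa2*, the mitochondrial thiolase, by -3.06, *Fabp1* by -2.65 and *Pdk4* by -2.39. *Acadvl*, *Ehhadh*, *Acsl1*, *Acot2*, *Plin2*, *Acadl* and *Hadha* were lower by 1.65 to 2.21 log2 units (log2 differences of -2.21 to -1.65). *Vnn1* (2.67, 3.72 and 2.74 against 6.33, 6.91 and 7.32) was higher by 3.81 and *Fabp2* by 3.96. The median of all genes was shifted by 0.52 towards the ileum and that of the members by -1.01. Of all called genes 73.8% were higher in ileum, 41.7% when every library was set to the same median and 46.2% after quantile normalization, and the members then gave 2 higher and 19 lower (beside 5.29% and 7.39% of all genes), or 2 higher and 20 lower (6.78% and 7.91%). With 1 library left out, 10 to 16 members were called beside 7.91% to 11.6% of all genes, with the lowest share without ileal sham replicate 2. *Acadl* and *Acsl1* were called in 1 of the 6 such fits, *Plin2* and *Hadha* in 4 and *Pdk4* in 5, and the other 9 members in all 6.

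Cell type markers differed between the sham regions as well. All 7 measured genes of an acinar list of 8 were lower in ileum, with a summed level of 6.56 to 10.47 log2 TPM in duodenum and 1.42 to 1.64 in ileum. The enterocyte list ranged from 7.9 to 8.36 in duodenum and from 10.3 to 10.54 in ileum, the hepatocyte list from 11.16 to 11.38 and from 10.38 to 10.77, and the endothelial list from 4.79 to 5.88 and from 5.96 to 6.57. The cholangiocyte list, whose genes do not mark cholangiocytes in the gut, ranged from 7.45 to 7.7 and from 8.02 to 8.39. Their part in the result was not tested.

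The drug difference was smaller in the ileum for 32 of the 36 members, and larger there for 47.3% of all genes. As a test of the difference itself, the interaction of region and WUSTL0717 passed for *Cyp4a31* (-3.01 ± 0.37, adjusted p = 0.00105) and *Acot1* (-3.16 ± 0.49, adjusted p = 0.0123), 2 of the 4 genes that passed among 15923 (0.0251%). *Acot1* stood at 2.18, 1.84, 1.68 and 3.00 in ileal SBR vehicle and at 2.31, 2.42, 2.80 and 2.52 in SBR WUSTL0717, overlapping values, where the duodenal groups lay over 2 log2 units apart. Under alternatives other than leaving out 1 library, *Cyp4a31* was called in all 10 that tested it and *Acot1* in 7 of 11. *Acot1* lost its call with a pseudocount of 0.1, with centring, after quantile normalization and without SBR vehicle replicate 4 and WUSTL0717 replicate 2 of the ileum (limma, adjusted p from 0.0632 to 0.263). *Cyp4a31* sat at its floor in most ileal libraries. At an unadjusted p under 0.05, 18 members had a smaller drug difference in the ileum (2.08% of all genes). For SBR the interaction passed for no member in limma (0.0754% of all genes), with 4 members higher and 2 lower at an unadjusted p under 0.05 (11.2% and 2.57% of all genes), among them *Pparg* (1.18, adjusted p = 0.315) and *Fabp2* (-2.22, adjusted p = 0.292).

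In the liver, on the deposited scale, 12 members were called for SBR, and no gene of the beta-oxidation core was. *Fgf21* rose 6.23-fold, *Pdk4* 4.26-fold, *Acot2* 4.21-fold, *Cyp4a31* 2.82-fold, *Cd36* 2.27-fold, *Pparg* 2.24-fold and *Plin2* 2.12-fold, and *Acsl1* fell (0.637-fold). In all 11 members were higher and 1 lower in SBR vehicle than in sham, where 37.4% of all 15901 genes were called higher and 4.47% lower (41.9% in all), so the members' share was below the background.

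*Pparg* had 3.20, 3.35 and 3.40 log2 TPM as lowest, median and highest value in sham and 3.88, 4.55 and 4.69 in SBR vehicle (1.16 ± 0.11, adjusted p = 2.97e-07). *Fgf21*, a hormone that the liver releases in fasting and other stress, had 1.01, 1.44 and 1.76 in sham and 2.95, 4.06 and 4.94 in SBR vehicle (2.64 ± 0.27, adjusted p = 5.12e-07). Under the 11 alternatives other than leaving out 1 library, the *Fgf21* difference ranged from 1.63 to 3.18 and was called in each. *Acot2* had 3.03, 3.15 and 3.77 and then 4.67, 5.21 and 6.09 (2.07 ± 0.26, adjusted p = 4.09e-06). In these 3 genes, as in *Ppard*, *Crat*, *Pdk4* and *Plin2*, no SBR library overlapped with sham (7 members, beside 15.6% of all genes). *Pdk4* had 2.44, 2.73 and 3.30 in sham and 4.03, 4.75 and 6.93 in SBR vehicle (2.09 ± 0.36, adjusted p = 0.00013). *Plin2* had 6.64, 6.92 and 7.06 and then 7.11, 8.02 and 8.60 (1.08 ± 0.18, adjusted p = 0.000117). *Cd36* had 3.32, 3.86 and 4.55 and then 4.27, 5.24 and 5.49 (1.18 ± 0.20, adjusted p = 9.44e-05), with the groups overlapping at their ends. *Ppard* (0.58), *Cyp4a31* (1.50), *Crat* (0.82), *Ehhadh* (1.01) and *Pex11a* (0.45) were also called.

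**Figure D5:**
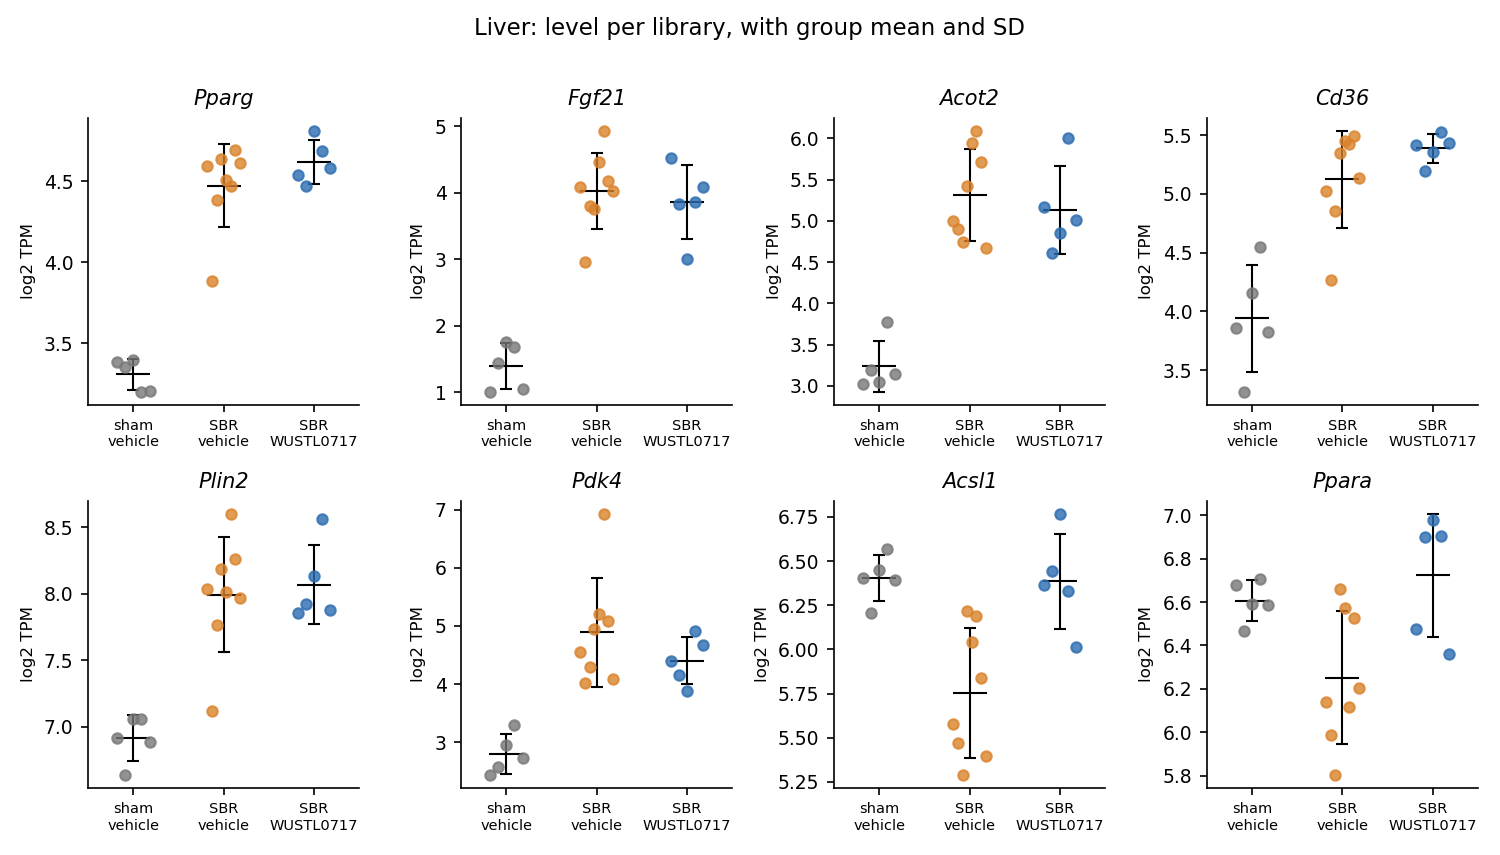
Expression of 8 members in each liver library (y axis, log2 TPM, points) by group (x axis), with the mean and SD of each group. *Pparg*, *Fgf21*, *Acot2*, *Plin2* and *Pdk4* lie above sham in both SBR groups, and *Acsl1* and *Ppara* are lower in SBR vehicle than in the other groups while overlapping with them.

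*Acsl1* had 6.21, 6.40 and 6.57 in sham and 5.29, 5.71 and 6.21 in SBR vehicle (-0.65 ± 0.16, adjusted p = 0.00296). *Ppara* had 6.47, 6.59 and 6.71 in sham and 5.81, 6.17 and 6.66 in SBR vehicle (-0.35 ± 0.14, adjusted p = 0.0518). Both were lower in most SBR vehicle libraries but overlapped with sham. The 8 genes of the beta-oxidation core differed by -0.14 to 0.23 and none was called in limma.

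These directions depended on the scaling of the libraries. The median of all genes was 0.25 log2 units higher after SBR, and of all called genes 89.3% were higher. When every library was set to the same median (centring) the share of higher calls was 41.5%, and after quantile normalization 45.6%, and the members then gave 10 higher and 12 lower (beside 20.4% and 28.8% of all genes), or 10 higher and 7 lower (22.5% and 26.8%). Under centring *Ppara* was lower by -0.66 (adjusted p = 0.000101), all 8 core genes were below 0 with 4 of them called (*Acadvl* -0.32, *Hadh* -0.27, *Acaa2* -0.45 and *Etfdh* -0.19), *Fabp1* was called at -0.58, and *Pex11a* was no longer called (0.14, adjusted p = 0.35). *Pparg*, *Fgf21*, *Acot2*, *Pdk4*, *Plin2*, *Cd36*, *Crat*, *Ehhadh*, *Cyp4a31* and *Ppard* were higher under each scaling, and *Acsl1* lower.

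Markers of other liver cells moved with the SBR comparison. All 5 genes of a cholangiocyte list were higher (*Spp1* 3.31, *Epcam* 2.68; summed level 5.98 to 7.36 log2 TPM in sham, 8.5 to 9.54 in SBR vehicle and 7.68 to 8.91 in SBR WUSTL0717), as were 6 of 8 smooth muscle and fibroblast genes (*Col1a1* 3.36; summed level 6.87 to 7.64, 8.42 to 9.2 and 7.72 to 8.58). Of 8 hepatocyte genes 3 were lower (summed level 11.25 to 11.71, 10.4 to 11.44 and 11.25 to 11.8). The 4 measured genes of the adipocyte list had a summed level of 5.38 to 6.15 in sham, 6.84 to 7.83 in SBR vehicle and 6.84 to 8.13 in SBR WUSTL0717, with *Cidec* higher (2.74) and *Cfd* lower (-2.14) after SBR. *Cidec* is also on the wider list of PPAR target and lipid genes, and *Adipoq* and *Plin1* were not analysed here. Their part in the result was not tested. Without the library with pancreatic RNA 12 members were called, beside 6038 of all 15901 genes.

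With WUSTL0717 against vehicle after SBR, 1 liver member was called, *Acsl1*, which was higher by 0.63 ± 0.16 (0.30 to 0.96, adjusted p = 0.0307), beside 4.10% of all genes. It had 5.29, 5.71 and 6.21 with vehicle and 6.02, 6.37 and 6.77 with WUSTL0717, close to the sham values, and the SBR groups overlapped. *Ppara* had 6.36, 6.90 and 6.98 with WUSTL0717 (0.47 ± 0.14, adjusted p = 0.0702) and *Vnn1* 6.08, 6.42 and 6.60 against 5.17, 6.00 and 6.34 (0.52 ± 0.17, adjusted p = 0.0878). At an unadjusted p under 0.05, 9 members were higher and none lower (8.50% and 8.72% of all genes), no member was free of overlap (1.23% of all genes higher), and 31 of 36 had a difference above 0 (54.7% of all genes) with a median of 0.27 beside 0.02. *Pparg* (0.14 ± 0.11), *Fgf21* (-0.16 ± 0.27), *Acot2* (-0.18 ± 0.26), *Plin2* (0.08 ± 0.18) and *Pdk4* (-0.49 ± 0.36), 5 of the members called for SBR, did not pass, and their intervals reached from -0.09 to 0.38, from -0.73 to 0.40, from -0.72 to 0.36, from -0.31 to 0.46 and from -1.24 to 0.26.

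The count again depended on the scaling. With each library centred on its median 18 members were called, all higher, beside 11.5% of all genes called higher and 8.19% lower. Among them were all 8 genes of the beta-oxidation core at 0.23 to 0.34 log2 units, *Cpt2* (0.26), *Slc25a20* (0.31), *Ppara* (0.48) and *Fabp1* (0.56). After quantile normalization 9 were called, all higher, beside 8.09% of all genes higher and 8.48% lower. The share of all called genes that were higher went from 35.1% to 58.4% and 48.8%, while the median of all genes was 0.02 to begin with. Without SBR vehicle replicate 1, or WUSTL0717 replicate 1, 2 or 3, no member was called (limma, 0.585% to 2.57% of all genes), without SBR vehicle replicate 4 there were 3 (4.01% of all genes) and without WUSTL0717 replicate 5 there were 2 (2.79%). The drug-treated livers also had lower *Spp1* (-1.06), *Epcam* (-1.10) and *Col1a1* (-1.47) than the vehicle livers, and the part of these cells in the result was not tested.

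Against sham, 17 members were higher in the livers of SBR WUSTL0717 mice and none lower, beside 28.8% of all genes called and 27.9% called higher, with 22 members above every sham library (27.4% of all genes). The largest were *Fgf21* (2.47 ± 0.30), *Acot2* (1.89 ± 0.29), *Pdk4* (1.60 ± 0.40), *Cd36* (1.45 ± 0.22) and *Pparg* (1.31 ± 0.13). *Cyp4a31* (1.29), *Cyp4a10* (1.20), *Plin2* (1.16), *Crat* (1.13), *Ehhadh* (1.11), *Vnn1* (0.93), *Pex11a* (0.91), *Cpt1a* (0.57) and *Ppard* (0.42) were also called. So were *Slc25a20* (0.45) and the beta-oxidation core genes *Acadl* (0.45) and *Hadha* (0.43). With 1 library left out, *Hadha* was called in 3 of 10 fits, *Cyp4a10* in 2, and *Acadl* and *Slc25a20* in 1. *Acsl1* (-0.02 ± 0.18) and *Ppara* (0.12 ± 0.16) were near sham. Under centring 11 members were called higher, beside 10.7% of all genes, and the share of higher genes went from 96.9% to 54.5% (56.1% after quantile normalization), and 11 were called without WUSTL0717 replicate 4 (15.4% of all genes) or sham replicate 2 (16.9%). Beside the markers given above, the macrophage list ranged from 8.57 to 8.92 log2 TPM in these livers and from 7.83 to 8.28 in sham (*Cd68* 0.96, with the Kupffer cell gene *Clec4f* at 0.34 and an adjusted p of 0.245), the endothelial list from 6.49 to 6.7 and from 5.99 to 6.29, and the enterocyte list from 9.62 to 9.97 and from 9.3 to 9.44. Their part in the result was not tested.

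The wider lists in the liver had calls in both directions for SBR alone, where 37.4% of all genes were called higher and 4.47% lower: 5 higher and 5 lower of 27 mitochondrial genes (*Ucp2* 1.43, *Acadsb* -0.56), 2 higher and 3 lower of 30 peroxisomal and thioesterase genes (*Abcd2* 0.81, *Phyh* -0.62) and 9 higher and 8 lower of 38 PPAR target and lipid genes (*Cidec* 2.74, *Lpl* 1.80, *Cyp4f14* -1.35). With WUSTL0717 against vehicle, where 1.44% of all genes were called higher and 2.66% lower, 4 of 30 peroxisomal and thioesterase genes were higher, among them catalase (*Cat*, 0.55) and *Phyh* (0.55), and 10 of 38 PPAR target and lipid genes, among them the omega-hydroxylase genes *Cyp4a12a* (1.97, adjusted p = 0.004) and *Cyp4a12b* (1.57) and the transporter *Slc27a2* (0.55). Of the mitochondrial genes 1 was higher (*Slc25a42*, 0.41) and 1 lower (*Acss1*, -0.38).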

How the data were processed

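The deposited values are log2 TPM. Per the labels and the study's methods, the authors depleted ribosomal RNA, aligned paired reads to GRCm38 (Ensembl) with STAR 2.7.9a, counted uniquely aligned unambiguous reads with featureCounts 2.0.3, converted them to TPM, took log2 and adjusted 2 batches (intestine and liver) with ComBat. The methods also name TMM size factors for library size, and whether these entered the deposited values is not stated. The pseudocount, the ComBat covariates, the strand setting and the depth are not given in the sources used here. The adjustment recentres and rescales each gene, so fold sizes are those of the adjusted scale. Values ranged from -1.688 to 18.421, and 2752 were below 0.

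The values were tested as deposited with limma 3.58.1 in R 4.3.3 (variance trend, empirical Bayes), 1 fit per tissue over its 3 groups and 1 over both gut regions, for genes with a mean log2 TPM above 1, with Benjamini-Hochberg adjustment over all genes tested (threshold 0.05). Standard errors and 95% intervals come from these fits. The scripts were tested on simulated data. Exact two-sided permutation tests over libraries can go no lower than 0.0286 in the gut, 0.000777 (SBR vehicle against sham) and 0.00794 (5 against 5) in liver, and 0.1 between sham regions.

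The members, the wider gene lists and the marker lists were chosen with earlier results of these data known. The genes named include all members past the adjusted threshold in a comparison, and the receptors in some comparisons but not in all. Where few members passed, some of those with the smallest p are named, with the wider lists' genes of smallest p. Alternatives covered the filter, the pseudocount, centring and quantile normalization of libraries, library weights, the variance model, a replicate block and leaving out libraries. Gene positions are from GENCODE M21 and promoter windows from RefSeq (GRCm38.p6). No count test was possible without counts. Results for a few genes of the wider lists, and the duodenal count of the wider mitochondrial list, are not reported here.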

Additional observations from a re-analysis of the deposited data

Results flagged for a closer look

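In groups of 4 to 10 libraries, 22 of the 252 member and group combinations tested held 1 library far from the others by Dixon's ratio, where chance alone gives about 1 in 20. Of these, 7 were ileal SBR vehicle replicate 4, which was highest for *Cyp4a10* (4.17 log2 TPM, next 2.8), *Slc25a20* (7.56, next 4.96), *Acadvl* (6.39, next 5.15), *Hadh* (7.1, next 5.76), *Etfdh* (5.98, next 4.55), *Ehhadh* (6.32, next 5.38) and *Cyp4a31* (1.38, next 1.33, its floor in the other 3 libraries). Ileal SBR WUSTL0717 replicate 2 was highest for *Cd36* (8.13, next 4.49), *Ech1* (8.06, next 7.04) and *Decr1* (5.74, next 4.41).

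In the duodenum, SBR WUSTL0717 replicate 3 was highest for *Etfdh* (6.98, next 6.26), replicate 1 lowest for *Pex11a* (5.83, next 6.5) and for *Cyp4a14* (4.23, next 4.5), and SBR vehicle replicate 3 highest for *Cyp4a14* (4.35, next 4.23) and *Fgf21* (2.2, next 1.92). For *Cyp4a14* and *Fgf21* in SBR vehicle, as for *Cyp4a31* in the ileum, the other 3 libraries share the gene's lowest value, so that any library off it gives the highest possible ratio, and these 3 cannot be read against the chance share. The low *Cyp4a14* value in WUSTL0717 replicate 1 is that floor too. In the liver, sham replicate 4 was highest for *Acot2* (3.77, next 3.19), *Ech1* (7.93, next 7.63) and *Pex11a* (5.57, next 5.22), and sham replicate 2 lowest for *Ppard* (4.04, next 4.33). Liver SBR vehicle replicate 2 was lowest for *Pparg* (3.88, next 4.39), SBR vehicle replicate 6 highest for *Pdk4* (6.93, next 5.21) and SBR WUSTL0717 replicate 2 lowest for *Cyp4a10* (6.18, next 6.78).

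The drug difference was not equal in the gut regions for 2 members by the interaction test in limma, *Cyp4a31* (-3.01, ileum minus duodenum) and *Acot1* (-3.16). *Acot1* lost this call in 4 of 11 alternatives other than leaving out 1 library (limma, adjusted p up to 0.263).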

How the results depend on the processing

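Counts are members called, with the share of all genes called in the same fit in parentheses. With WUSTL0717 against vehicle in the duodenum, 11 were called with a filter at 3 log2 TPM (0.776%), 3 after quantile normalization (0.113%), 14 with library weights (0.563%), 0 by an unmoderated test (0.0133%) and 3 with only the groups compared (0.0729%), against 6 as reported (0.258%), and 2 to 6 with 1 library left out (0.0464% to 0.186%). Against sham the 12 duodenal calls (0.802%) became 24 with centred libraries (2.60%), 25 with library weights (7.45%), 0 by the unmoderated test (0.0133%), 6 with only the groups compared (0.252%) and 3 to 10 with 1 library left out (0.146% to 0.557%). SBR alone in the duodenum gave 2 with library weights, a share below the 16.5% of all genes called there. In the ileum the 5 calls against sham (2.17%) became 8 with centring (7 higher and 1 lower, 2.69%), 9 with weights (4.84%), 0 by the unmoderated test (0.197%) and 0 to 3 with 1 library left out (0.412% to 1.52%), and SBR alone gave 1 after quantile normalization (0.583%), 2 with weights (1.77%) and 1 without SBR vehicle replicate 4 and WUSTL0717 replicate 2 together (0.457%), which was added after the data had been seen. In the liver SBR alone gave 22 with centring (49.2%) and 25 with weights (65.8%), where the share of all genes had also risen from 41.9%. The liver drug comparison gave 18 with centring (19.7%), 9 after quantile normalization (16.6%), 0 by the unmoderated test (0%), 0 with only the groups compared (0.931%) and 0 to 3 with 1 library left out (0.585% to 6.76%), and SBR WUSTL0717 against sham 11 with centring (19.6%), 11 after quantile normalization (20.1%), 28 with weights (52.7%), 26 unmoderated (36.2%), 28 with only the groups compared (40.9%) and 11 to 22 with 1 library left out (15.4% to 30.7%). The sham regions gave 22 after quantile normalization (14.7%), 22 with weights (34.8%) and 8 unmoderated (6.71%). The interaction with WUSTL0717 gave 1 with a filter at 3, a pseudocount of 0.1, centring, quantile normalization and without those 2 ileal libraries (0.0126% to 0.0249%), and that with SBR gave 2 with weights (12.5%).

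Replicate numbers did not pair the libraries by the check of deviations. Among the pairs of groups checked, which were those compared within a tissue and the same group in ileum and duodenum, each library correlated best with its own number in sham ileum and duodenum alone (0.358, 0.0699 and 0.447), which is a hint and not part of the design. With a replicate block, 2 members were called for WUSTL0717 against vehicle in the duodenum (0.0530% of all genes), 0 for SBR WUSTL0717 against sham in the duodenum (0.00663%), 0 in the ileum (0.558%) and 0 for WUSTL0717 against vehicle in the liver (3.05%).

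The cause of these moves was not tested beyond what each alternative does. For single members named in a comparison, 1610 values kept their direction and side of the threshold, 271 lost and 22 gained the call, and 0 changed sign. Depth is unknown, so low values such as the floors of *Cyp4a31*, *Cyp4a14* and *Fgf21* carry no limit of detection.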

Other observations

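Of the receptors' partners and coregulators, 0 of 15 in the duodenum and 0 of 16 in the ileum passed the adjusted threshold in any of the 3 comparisons (limma), beside 0% to 0.802% and 0.0697% to 2.17% of all genes, shares at which lists of this size would hold few or no calls. At an unadjusted p under 0.05 there were 0 to 2, beside 5.31% to 16.9% of all genes in the duodenum and 6.87% to 14.1% in the ileum. *Nr1h3*, the liver X receptor alpha gene, differed between the SBR groups by 0.56 ± 0.48 in the duodenum (adjusted p = 1) and by 1.13 ± 0.36 in the ileum (unadjusted p = 0.00819, adjusted p = 0.548), and its sham level was 2.12 log2 units higher in ileum than in duodenum (adjusted p = 0.00585). *Rxra*, the retinoid X receptor alpha gene, differed by -0.45 ± 0.66 and 0.50 ± 0.39.

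In the liver after SBR, 6 of 16 of these genes were higher and 1 lower, among them *Nrip1*, a corepressor, at 0.62, *Rxrg* at 0.57, *Nr1h2*, the liver X receptor beta gene, at 0.45, *Crebbp* at 0.35, *Ep300* at 0.28 and *Ppargc1b* at -0.38. These lie beside 37.4% of all genes called higher, 4.47% called lower and a shift of 0.25 in the median of all genes. None passed between the SBR groups.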
